A study of Mus musculus with 2 samples.

Results

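The Mir344 genes of mouse chromosome 7 are a tandem family of microRNA genes. Members were taken by name: every gene row whose GENCODE M21 symbol is Mir344, alone or followed by a letter, a copy number or both. This gave 13 genes of the 1973 in the tables. The study profiled microRNAs by sequencing in total RNA of the hindbrain of newborn B6NCrl mice (postnatal day 0, sex not collected), with 1 group of 2 libraries. Each library came from the hindbrain of a single animal, pup 1 and pup 3 in the labels. There was no treatment, no second genotype and no other tissue, so neither the word brain in the name of the cluster nor any change could be tested by contrast, and the data give levels and the difference between these animals.

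MicroRNAs are cut from hairpin precursors, and each arm of a hairpin can yield a mature strand. The mature strand is loaded into an Argonaute protein, and its seed, bases 2 to 8, pairs with target messenger RNAs. The miR-344 family is known from rodents and was described in brain tissue. Its genes lie between Snrpn on one side and Ndn, Magel2 and Mkrn3 on the other, imprinted genes of the mouse counterpart of the human Prader-Willi region. A gene family made by tandem duplication yields mature strands that can be identical between copies, and that bears on what the rows of a count table can hold.

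The mature strands show how the copies differ, and are given with the seed in capitals (RefSeq, GRCm38.p6, all on the minus strand of chromosome 7). All 13 genes matched a RefSeq hairpin of the same coordinates, with 25 mature entries that come to 18 distinct sequences and 11 distinct seeds. From the 3′ arm they fall into 6 seeds. The seed AUAUAAC belongs to Mir344d-1, Mir344d-2, Mir344d-3 and Mir344e, and the seed GAUCUAG to Mir344c, Mir344 and Mir344-2.
miR-344d-3p (Mir344d-1, Mir344d-2 and Mir344d-3): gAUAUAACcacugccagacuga
miR-344e-3p: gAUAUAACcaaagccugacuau
miR-344h-3p (Mir344h-1 and Mir344h-2): gGUAUAACcaaagcccgacugu
miR-344-3p (Mir344 and Mir344-2): uGAUCUAGccaaagccugacugu
miR-344c-3p: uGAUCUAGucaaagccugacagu
miR-344b-3p: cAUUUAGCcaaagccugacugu
miR-344g-3p: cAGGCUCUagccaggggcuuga
miR-344f-3p: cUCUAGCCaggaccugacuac

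The 5′ arms are more alike, with the seed GUCAGGC in 7 of the 13 genes, and they are shown because the arm that is shared differs between subgroups. The single annotated mature strand of Mir344i also comes from the 5′ side of its hairpin, where the register is moved so that its seed is AGUCAGG.
miR-344-5p (Mir344 and Mir344-2): aGUCAGGCuccuggcuagauuccagg
miR-344b-5p: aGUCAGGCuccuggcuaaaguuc
miR-344c-5p: aGUCAGGCugcuggcuagaguac
miR-344g-5p: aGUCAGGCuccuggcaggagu
miR-344d-1-5p: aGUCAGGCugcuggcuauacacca
miR-344d-3-5p: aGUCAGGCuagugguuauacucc
miR-344d-2-5p: aGUCUGGUugcuggcuauauucca
miR-344f-5p: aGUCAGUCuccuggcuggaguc
miR-344e-5p and miR-344h-5p (Mir344e, Mir344h-1 and Mir344h-2): cAGGCUUCuggcuauauucc
miR-344i: aAGUCAGGcuccuggcugga

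The whole hairpins of the most counted genes, Mir344f and Mir344b, and of the copy pair Mir344 and Mir344-2 show where the arms lie (mature strands in capitals, loop and flanks in lower case). Mir344 and Mir344-2 differ outside their mature strands, at the loop and the flanks, and have 95% identity over the shorter hairpin.
Mir344f: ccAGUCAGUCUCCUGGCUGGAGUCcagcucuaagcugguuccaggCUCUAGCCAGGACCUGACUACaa
Mir344b: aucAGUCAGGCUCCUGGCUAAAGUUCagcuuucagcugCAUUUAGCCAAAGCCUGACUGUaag
Mir344: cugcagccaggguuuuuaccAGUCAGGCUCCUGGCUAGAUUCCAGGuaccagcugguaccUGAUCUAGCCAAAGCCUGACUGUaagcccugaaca
Mir344-2: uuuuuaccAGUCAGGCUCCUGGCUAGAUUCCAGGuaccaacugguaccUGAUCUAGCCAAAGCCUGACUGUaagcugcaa

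Same-strand counts over all microRNA genes came to 2459757 in pup 1 and 3012320 in pup 3. Levels are given as CPM, counts scaled to these totals in the usual way; a read is a whole small RNA, so no length scaling was applied. Where no count was seen, up to 3 counts are still allowed, which is 1.22 CPM for pup 1 and 0.996 CPM for pup 3; the two-sided interval of a count of 0, as drawn in the plot of levels, reaches slightly higher, to 1.5 and 1.22 CPM. Intervals are exact 95% binomial (Clopper-Pearson) intervals and cover counting error only, since reads carry no molecular identifiers. The labelled tissue was checked on marker microRNAs. The 9 measured neural genes summed to 21308 and 25971 CPM in pups 1 and 3. Mir137, Mir128-1, Mir128-2, Mir153 and Mir9-3 carried this sum, while Mir124a-1, Mir124a-2, Mir124a-3 and Mir9-2 had at most 5.64 CPM in either pup. The Hox-encoded Mir10a and Mir10b summed to 56575 and 33740 CPM. The liver marker Mir122 had 41.9 and 45.5 CPM, and of 4 measured striated muscle genes 3 had no count and Mir206 had 98.4 and 124.8 CPM, more than all Mir344 genes together. The 3 without a count were Mir1a-1, Mir133a-1 and Mir133a-2, and Mir1a-2 was not measured. Reads with several matching loci are not counted on these rows, so their 0 does not show that muscle microRNAs were absent. Markers of vessels and blood were present too. Mir126a of endothelium had 34216 and 36931 CPM, and the smooth muscle pair Mir143 and Mir145a summed to 7629 and 9720 CPM. The leukocyte and red blood cell markers each moved in opposite directions between the pups. Of the leukocyte pair, Mir155 had 145.1 and 122.8 CPM and Mir223 had 169.1 and 229.4 CPM. Of the red blood cell pair, Mir144 had 17.1 and 67.1 CPM and Mir451a had 133.8 and 37.5 CPM. The part of vessel and blood cells in the Mir344 levels was not tested. In such bulk tissue, fewer cells that contain a microRNA and less of it per cell cannot be told apart.

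Mir344 genes together made up a small part of the hindbrain microRNA counts. Pup 1 had 120 counts on all 13 genes, or 0.00488% of its total (interval 0.00404% to 0.00583%), and pup 3 had 172, or 0.00571% (interval 0.00489% to 0.00663%). The mean was 52.9 ± 5.88 CPM (SD, n = 2, as for all following values with ±). Counts were seen at 7 of the 13 genes (53.8%), compared with 699 of all 1973 (35.4%). Both pups reached 10 CPM at 2 of 13 (15.4%), close to the 306 of 1973 (15.5%) over all genes. The median level of the genes with any count was 4.19 CPM in the family and 5.13 CPM over all genes.

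Mir344f and Mir344b carried most of the family's counts. Mir344f (ENSMUSG00000093108.1, positions 62046181 to 62046248, mm10) had 37 counts in pup 1 and 66 in pup 3, or 15.0 and 21.9 CPM (18.5 ± 4.86). Mir344b (ENSMUSG00000092921.1, 61790519 to 61790581) had 45 and 55 counts, or 18.3 CPM in both pups (18.3 ± 0.0256). The higher of the pair was Mir344b in pup 1 and Mir344f in pup 3, with overlapping intervals in each, so their order is not resolved. Of all counts on the family, Mir344f held 35.3% and Mir344b 34.2%.

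Mir344c and Mir344g followed. Mir344c (ENSMUSG00000077107.1, 61837311 to 61837402), which has the 3′ seed of Mir344, had 20 and 30 counts, or 8.13 and 9.96 CPM (9.04 ± 1.29). Its interval lay below that of Mir344b in pup 1 (4.97 to 12.6 against 13.3 to 24.5 CPM) and overlapped it in pup 3 (6.72 to 14.2 against 13.8 to 23.8 CPM). Mir344g (ENSMUSG00000092850.1, 61982289 to 61982359) had 10 and 13 counts, or 4.07 and 4.32 CPM (4.19 ± 0.177). From Mir344c down, each gene's interval overlapped that of the next in both pups.

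The rest of the family was at or near 0. Mir344e (ENSMUSG00000077869.1, 61735537 to 61735602) had 7 and 5 counts, or 2.85 and 1.66 CPM (2.25 ± 0.839), and was the only gene with counts in both pups for which pup 1 had the higher count. Mir344d-3 (61726249 to 61726328) had 1 and 2 counts, and Mir344i (62085223 to 62085310) had 0 and 1. Mir344d-1, Mir344d-2, Mir344h-1, Mir344h-2, Mir344 and Mir344-2 had no count in either pup. The gene that gave the family its name was thus among the 6 of 13 at 0 (46.2%, compared with 64.6% of all genes). No Mir344 gene had a count on the opposite strand in either pup.

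**Figure D1:**
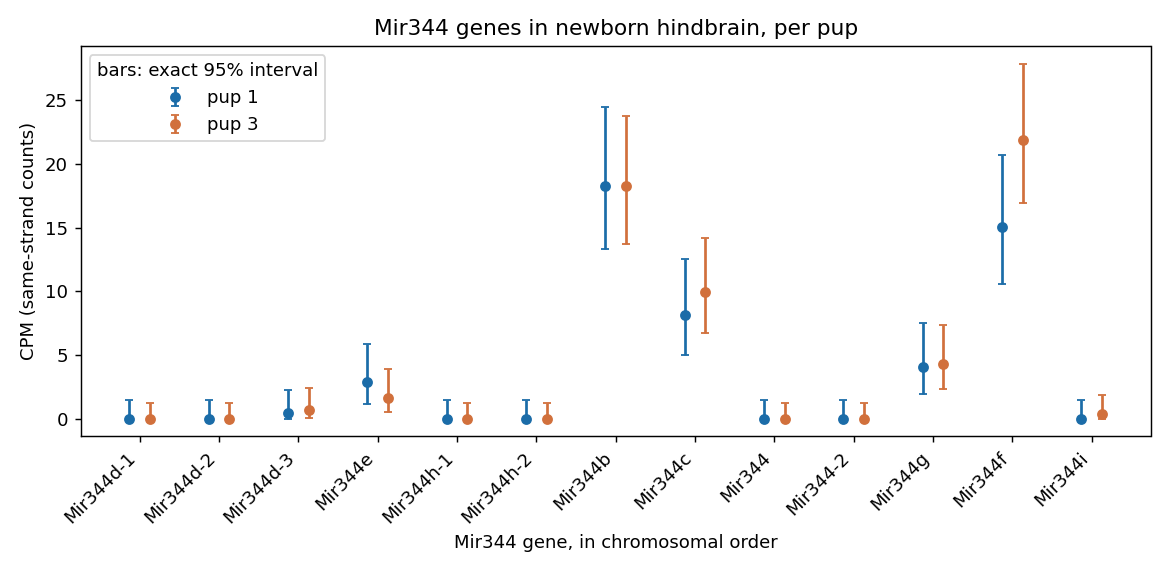
Level of each of the 13 Mir344 genes, in chromosomal order, in CPM for pup 1 (blue) and pup 3 (orange), with exact 95% binomial intervals as bars. Mir344b and Mir344f stand at 15.0 to 21.9 CPM and Mir344c and Mir344g lower, while 6 genes are at 0 in both pups.

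The 4 genes with the most counts were the 4 whose mature strands occur in no other precursor. Each mature strand was searched, on both strands, in 2232 mouse microRNA precursors (2202 of GENCODE M21 and 30 further hairpins of RefSeq), leaving out the locus it came from. In Mir344b, Mir344c, Mir344f and Mir344g no annotated mature strand was found elsewhere, and these 4 genes held 112 of the family's 120 counts in pup 1 (93.3%) and 164 of 172 in pup 3 (95.3%). In Mir344d-1, Mir344d-2, Mir344d-3 and Mir344e 1 of the arms was found elsewhere, and they had 8 and 7 counts together. In Mir344, Mir344-2, Mir344h-1, Mir344h-2 and Mir344i every annotated mature strand was found elsewhere, and they had 0 and 1 counts together.

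By the inferred layout of the tables, a read with more than a single matching locus is counted on no gene. Such reads numbered 2337021 in pup 1 (40.2% of all reads) and 3015969 in pup 3 (42.0%). A read of miR-344-3p or miR-344-5p matches Mir344 and Mir344-2 exactly, and a read of miR-344d-3p matches Mir344d-1, Mir344d-2 and Mir344d-3. For these strands the rows do not separate absence of the microRNA from reads left uncounted. The 5′ strands of the Mir344d genes were found in no other precursor, so among the precursors searched this limit does not apply to them. How many of the multimapped reads came from Mir344 loci was not tested. The 0 of Mir344 therefore gives no upper limit for miR-344-3p itself, and the sum over the family covers only what mapped to a single place.

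Other microRNA genes, sorted in the same way, give the background. Of 41 such genes outside the family with every mature strand found in another precursor, 30 had no count in either pup (73.2%), against 4 of 5 in the family. Being in this class did not fix a row at 0: the highest mean among the 41 was 939 CPM. Mir9-3, which carried part of the neural sum, is among them. Of 52 genes with only some of their mature strands found elsewhere, 5 had none (9.62%), against 2 of 4. Of 810 genes with no shared mature strand, 270 had none (33.3%), against 0 of 4. The groups of the family are too small to read a difference from these shares.

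Even the counted genes are close relatives of other loci. The nearest other precursor of miR-344f-5p and of miR-344g-5p was 1 edit away (a substitution, insertion or deletion), and those of miR-344b-3p, miR-344b-5p, miR-344c-3p, miR-344f-3p and miR-344g-3p were 2 edits away. Of the stretches of 20 nt in each hairpin, 0% of Mir344c, 4.55% of Mir344b, 9.62% of Mir344g and 16.3% of Mir344f were found in another precursor. The share was 23.4% in Mir344e, 42.0% in Mir344i, 47.4% in Mir344, 59.0% in Mir344-2, from 52.5% to 58.0% in the Mir344d genes and 100% in Mir344h-1 and Mir344h-2, whose hairpins are identical.

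The cluster spans 402 kb of chromosome 7 (61683124 to 62085310), with all 13 genes on the minus strand and no protein-coding gene inside it. Gaps between neighbouring members ran from 2079 bp (Mir344d-1 to Mir344d-2) to 63821 bp (Mir344g to Mir344f), with a median of 40632 bp. The nearest protein-coding genes are Ndn, 261 kb to one side, followed by Magel2 at 292 kb, and Snrpn, 1543 kb to the other. From Mir344d-3 to Mir344, 7 genes lie in introns of the long noncoding RNA gene A230057D06Rik (61704519 to 61928690) on its strand. Mir344-2 lies in an intron of A330076H08Rik, another noncoding RNA gene (61930137 to 61982358), and Mir344g overlaps an exon of it at its 5′ end. Mir344d-1, Mir344d-2, Mir344f and Mir344i are intergenic in this annotation.

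Of the 4 genes with no shared mature strand, Mir344b (18.3 CPM) and Mir344c (9.04 CPM) lie in A230057D06Rik, Mir344g (4.19 CPM) overlaps A330076H08Rik, and Mir344f (18.5 CPM) has no annotated host. Neither host RNA was measured here, and neither were parental alleles, so whether the cluster is imprinted cannot be read from these counts.

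**Figure D2:**
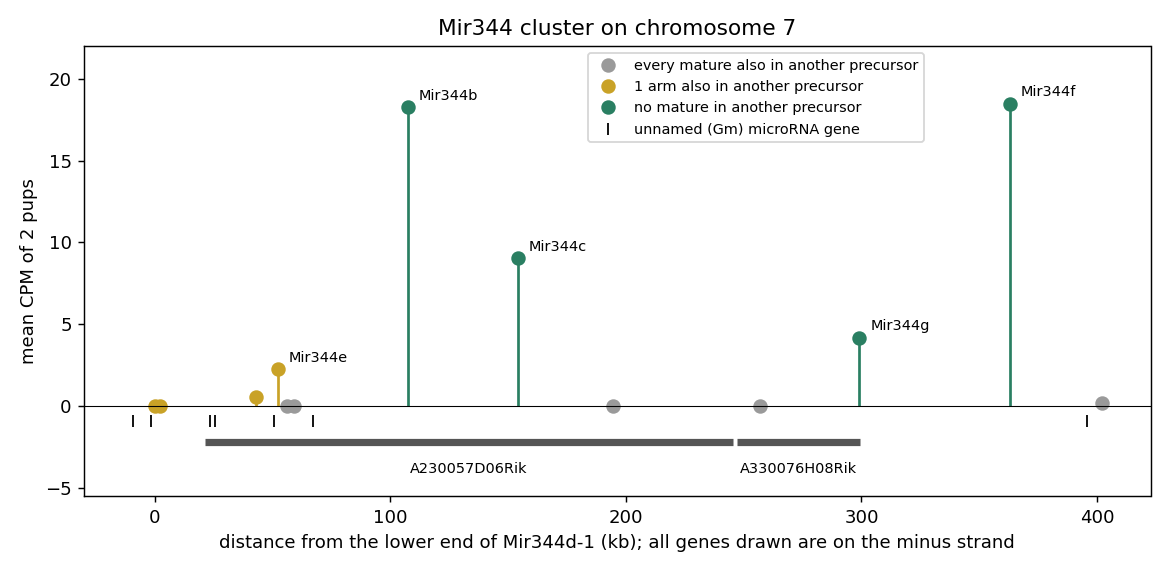
Mean CPM of the 2 pups for each Mir344 gene, against the distance in kb from the lower end of Mir344d-1; colour gives whether its mature strands also occur in another precursor, black ticks mark unnamed microRNA genes, and grey bars the host RNA genes A230057D06Rik and A330076H08Rik. The 4 genes drawn in green (Mir344b, Mir344c, Mir344g and Mir344f) are the highest. Mir344b and Mir344c are consecutive members along the cluster, as are Mir344g and Mir344f.

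The other microRNA genes of the neighbourhood were relatives of the family without its name. Within 1 Mb of a member the tables hold 7 more microRNA genes, all with Gm symbols and all on the minus strand, 5 of them inside the cluster. Their precursors had 86.4% to 96.6% identity to the closest Mir344 hairpin over the shorter sequence. Among the 2212 precursors elsewhere the best identity to any Mir344 hairpin had a median of 56.7% and a maximum of 65.1%. Gm23962 and Gm23490 hold the whole of miR-344d-3p, and Gm24923 the whole of miR-344i. Gm24923 (62078718 to 62078805), 96.6% identical to Mir344i over the shorter hairpin, had 0 and 1 counts in pups 1 and 3, and Gm23873 (61750468 to 61750537) had 0 and 4. Gm25533, Gm23962, Gm23490, Gm22466 and Gm23917 had none. With these genes added, the counts on the cluster were 120 in pup 1 and 177 in pup 3.

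The precursors of Mir344i and Gm24923 are shown because both hold the sequence of miR-344i, which is in capitals for Mir344i.
Mir344i: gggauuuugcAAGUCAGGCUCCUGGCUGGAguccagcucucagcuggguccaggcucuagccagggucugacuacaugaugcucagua
Gm24923: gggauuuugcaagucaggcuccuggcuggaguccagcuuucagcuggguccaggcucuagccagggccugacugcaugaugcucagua

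No Mir344 gene was called different between the pups. Of the 13 genes, 4 had at least 10 counts in a pup and were tested, with an exact binomial test of the counts given TMM-scaled totals and Benjamini-Hochberg adjustment over all 395 genes tested. None of the 4 was called, and none had an unadjusted p under 0.05, while 185 of the 395 genes (46.8%) were called. Calls were fewer among genes of low count: of 112 tested genes with at most 66 counts in each pup, the highest count of a Mir344 gene, 8 were called (7.14%; this subset was chosen after the counts were seen). The test compares 2 libraries and has no replicate on either side.

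Mir344f had the largest of the 4 folds, higher in pup 3 by 0.48 on the log2 scale (counting interval -0.11 to 1.11, exact binomial test, adjusted p = 0.198). Mir344c was higher by 0.23 (interval -0.62 to 1.13), Mir344g by 0.02 (interval -1.27 to 1.38) and Mir344b had a log2 fold of -0.06 (interval -0.65 to 0.55). Over all tested genes the median log2 fold was 0.02. The common coefficient of variation between the pups was 16.5% over 361 genes (edgeR) and gives log2 folds an SD of 0.34 before counting error. The SD of the log2 folds of all 395 tested genes, counting error included, was 0.50, and each of the 4 Mir344 folds lay within it. Summed over all 13 genes the log2 fold was 0.17 (interval -0.17 to 0.52), and without Mir344f it was 0.01. Differences within these intervals were not detectable at this depth.

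**Figure D3:**
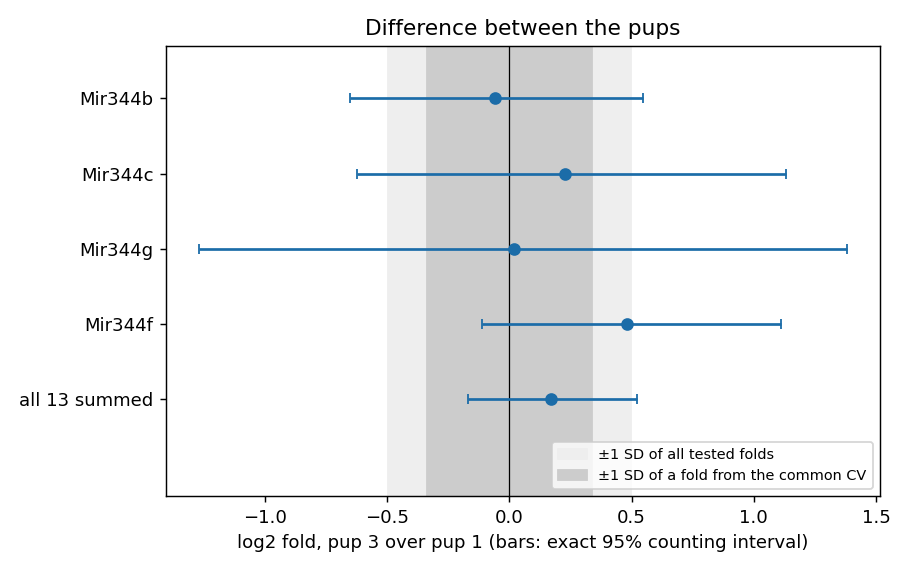
Log2 fold of pup 3 over pup 1 for the 4 tested Mir344 genes and for the sum over all 13, with exact 95% counting intervals; the dark band is 1 SD of a log2 fold (0.34) from the common coefficient of variation, without counting error, and the light band 1 SD (0.50) of all tested folds. Every interval drawn includes 0, and every point lies within the light band, Mir344f (0.48) near its edge.

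Among all genes, Mir344f was at position 286 and Mir344b at position 287 by mean CPM. Mir344c was at 315, Mir344g at 364 and Mir344e at 404. The genes nearest to Mir344f in level were Mir200c (14.6 and 24.6 CPM in pups 1 and 3), an epithelial microRNA, and Mir190b (17.5 and 19.6 CPM) above it, and Mir344b and Mir8112 (22.8 and 12.9 CPM) below. These genes are alike in mean CPM over the 2 pups. Apart from Mir344b, a member of the same cluster, they were compared with Mir344f in nothing else.

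Genes on a list of neuronal microRNAs mostly had higher levels than Mir344f. Of 22 genes on that list 21 were measured, with a median of 478 CPM, and 17 stood above Mir344f. Mir132, which neuronal activity induces, had 1975 and 2110 CPM, and its neighbour Mir212 had 132 and 103 CPM. The 4 genes of the list below Mir344f were Mir124a-1, Mir124a-2, Mir124a-3 and Mir9-2, with 4.88 and 5.64 CPM at Mir124a-1. Each of these 4 shares a stretch of 20 nt with 2 or 3 other precursors, so their rows, too, do not separate a scarce microRNA from multimapped reads, and no order of miR-124 or miR-9 against Mir344f can be read from them. Between the pups, 15 of 18 tested list genes were called, 6 higher and 9 lower in pup 3, compared with 185 of all 395 tested genes (46.8%). Each of the 15 had more counts than any Mir344 gene, and calls were fewer among genes of low count.

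**Figure D4:**
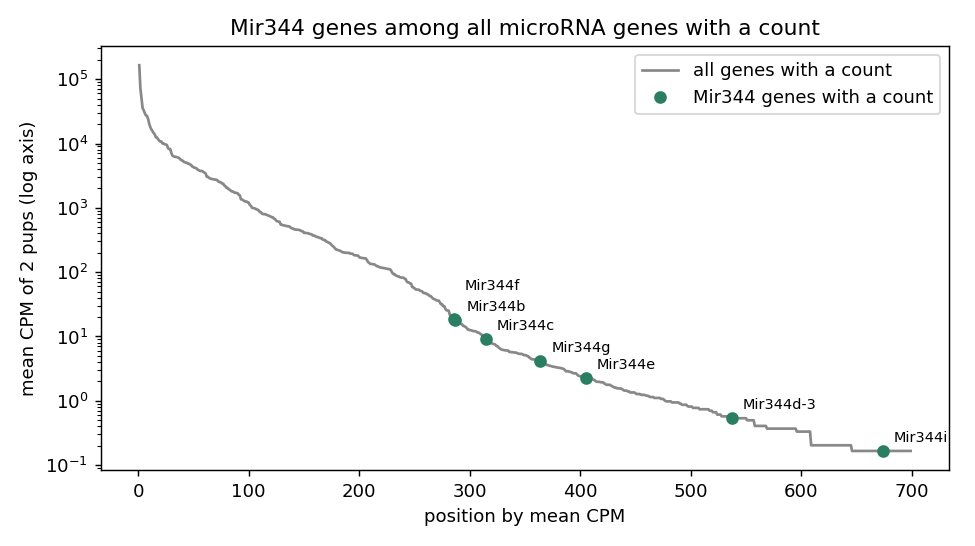
Mean CPM of the 2 pups (log axis) against position by level for all 699 genes with a count (grey line), with the 7 Mir344 genes that had a count marked. Mir344f and Mir344b sit together at 18.5 and 18.3 CPM, at positions 286 and 287.

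Seeds of the family were compared with those of 1679 RefSeq mature mouse microRNAs. Of the 11 Mir344 seeds, 9 belong to no mature microRNA outside the family. The seed AUAUAAC of miR-344d-3p and miR-344e-3p is also that of miR-410-3p, from Mir410 of the imprinted Dlk1-Dio3 region (chromosome 12, 109743715 to 109743795).
miR-410-3p: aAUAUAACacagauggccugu

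Mir410 had 905 and 1354 counts, or 368 and 449 CPM (409 ± 57.7), about 147 times the summed mean of the 4 Mir344 genes with that seed. The latter sum leaves out multimapped reads, miR-344d-3p included. Counts are per gene, so the arm that the reads of Mir410 or of the Mir344 genes came from is not known. The ratio is thus between genes and not between strands with that seed. The seed AGGCUCU of miR-344g-3p is shared with miR-7070-3p, whose gene Mir7070 had 11 and 13 counts, or 4.47 and 4.32 CPM, close to Mir344g at 4.07 and 4.32 CPM. For Mir7070 and Mir344g, too, the arm of the reads is not known.

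Hairpins of the named members form sequence groups along the chromosome, with the unnamed Gm genes left out of this grouping. Mir344h-1 and Mir344h-2 are identical, and Mir344e has 93.3% identity to them. The 3 Mir344d hairpins have 91.3% to 92.8% identity to their closest named member. The unnamed Gm23962 has 94.2% identity to Mir344d-1, and Gm23490 has 93.75% to Mir344d-3. Among the named members, Mir344f, Mir344g and Mir344i, those nearest to Ndn, are closest to each other (88.7% to 89.7%). The unnamed Gm24923 is closer still to Mir344i, with 96.6% identity. These 3 members have the highest GC content, from 56.8% to 62%, against 45% to 53.7% in the rest. Mir344b is the most set apart, with 77.8% identity to its closest named member, Mir344. Counts were not confined to a sequence group: Mir344f and Mir344g come from the last of these, and Mir344b and Mir344c from the group of Mir344.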

How the data were processed

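MicroRNA-seq was made from the hindbrains of 2 newborn mice. The authors deposited for each a table of raw counts per gene, aligned to mm10 with GENCODE M4, per the deposited README listings. For aligner and trimming, nothing is given in the sources used here. A table has 3 columns of counts and 4 rows that name no gene; no source used here describes them. From the layout (for every gene the first column is the sum of the others), they were read as either-strand, same-strand and opposite-strand counts of reads mapped to a single locus. The same-strand column was used, and the 4 rows were left out of totals: unmapped 13.7% and 12.4%, multimapped 40.2% and 42.0%, and outside a listed gene 3.79% and 3.63% of all reads of pups 1 and 3.

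Symbols and coordinates are those of GENCODE M21 (same assembly), which matched 1894 of 1973 rows; sequences are RefSeq's and GENCODE's. Copies of mature strands were sought among annotated precursors (edlib 1.3.9.post1), since a genome sequence was not used here; the plan had named the genome. Counts with at least 10 in a pup were compared by an exact binomial test (scipy 1.17.1, TMM from edgeR 4.0.16 in R 4.3.3, prior count 0.5 for folds, threshold 0.05). The test was checked only on simulated counts that hold counting error, so the check does not cover variation between animals. DESeq2 1.42.0 gave other size factors. With 1 library a side, edgeR's quasi-likelihood test could not be fitted. The text names every Mir344 gene, the 2 genes above and the 2 below the most abundant one in level, microRNA genes within 1 Mb, and at most 4 genes of the neuronal list with values. Members and lists were chosen with earlier results of these data known.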

Additional observations from a re-analysis of the deposited data

How the results depend on the processing

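The share of counts on the family was 0.00529% (mean of the 2 pups), 0.00514% with either-strand counts, and 0.00488% to 0.00571% when a pup was left out; with all reads as the total, a larger denominator by construction, it was 0.00223%. The 2 genes at 10 CPM in both pups became 5 at a threshold of 1 CPM and 0 at 100 CPM, and stayed 2 with either-strand counts and without either pup. No Mir344 gene was called between the pups under DESeq2 size factors, plain totals or with every gene with a count tested (7 Mir344 genes tested, 0 with an unadjusted p under 0.05). The log2 fold of the sum ran from 0.01 (without Mir344f) to 0.23 (plain totals), and no fold of a tested gene changed sign under the scalings. Folds cannot be given without a pup. Depth limits every value: the 13 genes together have 120 and 172 counts, and multimapped reads are not assigned.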
